A study of Homo sapiens with 7 samples.

Results

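SALL1, SALL2, SALL3 and SALL4 are the 4 human members of the SALL family, and they were taken by name, as 4 of the 23710 genes of the table. All 4 passed the filter on low values (normalized counts averaging 50 or more), as did 12578 genes in all, called tested genes below although no test between peptides was possible. RNA was sequenced from SNU398, an established human hepatocellular carcinoma line, after 8 hours with 30 µM of 1 of 4 peptides, with 1 library for each. PEN-FFW carries an engineered peptide, PEN-WT the native SALL4 stretch from which it was designed, PEN-MUT a mutated control stretch and PEN the cell-penetrating carrier penetratin alone, which all 4 share, from what is known of the study. The question was how transcripts differ when the contact between SALL4 and its partner RBBP4 is targeted. No untreated library was analysed here, the line stands for 1 tumour, and the 3 chromatin samples of the series were not analysed here.

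SALL proteins are zinc finger transcription factors related to spalt of the fruit fly, with pairs of C2H2 zinc fingers spread along the protein. A short basic motif at the very start of the protein binds RBBP4 and so brings in the NuRD complex, which removes acetyl groups from histones and remodels nucleosomes. SALL4 acts in embryonic stem cells and fetal liver, is silent in adult liver and is expressed again in a share of hepatocellular carcinomas. SALL1 is needed for kidney development and is mutated in Townes-Brocks syndrome, SALL4 is mutated in Duane-radial ray syndrome, SALL3 binds the DNA methyltransferase DNMT3A, and SALL2 is the most divergent member.

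The first 36 coding bases of SALL3 and SALL2 are shown because annotated SALL2 starts differ in whether they encode the motif. They were read from the GRCh37 genome at GENCODE 44 transcripts, with bases 7 to 18, counted from the A of the start codon, in capitals; these are the 4 motif codons in SALL3 and in the alternative SALL2 start. Each run lies within exon 1 of its transcript. A further annotated SALL2 start without the motif, with 297 coding bases, is not shown. SALL3 lies on the plus strand (chr18:76740275-76740310), and SALL2 on the minus strand, with its canonical start at chr14:21994226-21994261 and an alternative start at chr14:22005020-22005055.
SALL3: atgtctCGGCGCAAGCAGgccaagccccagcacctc
SALL2 canonical start: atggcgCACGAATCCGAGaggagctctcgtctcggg
SALL2 alternative start: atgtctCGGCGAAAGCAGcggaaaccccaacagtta

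The canonical SALL2 start does not encode the motif. Of the 6 annotated SALL2 transcripts with a readable start, 2 encode it, and the table gives 1 value per gene, so their levels were not told apart. Among 19918 protein-coding genes the 4 motif residues stood within the first 10 residues of at least 1 transcript in 18 (0.0904%), and the 4 SALL genes were among these 18.

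The coding parts are 3159 bases for SALL4, 3972 for SALL1, 3900 for SALL3 and 3015 for the canonical SALL2 transcript. Coding GC content set SALL3 apart, with 68.8%, against 57.0% in SALL4, 54.0% in SALL1 and 58.6% in SALL2. Over whole transcripts SALL3 reached 62.0%, above 89.7% of tested genes, while SALL2 had 55.5%, SALL4 51.3% and SALL1 49.8%. SALL4 spans 50398870 to 50419060 on chromosome 20, SALL1 51169893 to 51186245 on chromosome 16, SALL3 76739818 to 76762677 on chromosome 18 and SALL2 21989231 to 22005350 on chromosome 14, all in GRCh37. Counting strand is not given in the sources used here, and SALL2 shares 472 exon bases with a noncoding gene on the opposite strand, so reads there cannot be told apart. Of 6 pseudogenes named for SALL1 or SALL4, 0 had a row in the table.

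Library depth ran from 27347377 reads in PEN-FFW to 40717633 in PEN-WT, counted in genes above the lowest reported level. SALL reads made up 0.0132% of these in PEN-FFW, 0.0123% in PEN-WT, 0.0105% in PEN-MUT and 0.012% in PEN. The liver label was checked against 10 hepatocyte and hepatocellular markers, of which 2 passed the filter, GPC3 and ALB. TTR, HNF4A, APOB, SERPINA1, TF and FGB stood at the lowest reported level in every library. AFP, the fetal serum protein, stood at 9.2 normalized counts with PEN-FFW, 7.8 in PEN-WT, 11.0 in PEN-MUT and 9.2 in PEN, so most of these defining markers were at or near the lowest reported level in this line. Relative to PEN, the mesenchymal gene COL1A1 was at 1.02 ± 0.14 in PEN-FFW and 0.46 ± 0.14 in PEN-WT on the log2 scale defined below, and the epithelial gene EPCAM at -0.36 ± 0.07 and -0.15 ± 0.06. The other mesenchymal genes were on the other side of 0 from COL1A1 in PEN-FFW: VIM at -0.19 ± 0.01, CDH2 at -0.22 ± 0.13 and FN1 at -0.12 ± 0.06. In PEN-WT they were at -0.01 ± 0.01, -0.11 ± 0.11 and -0.25 ± 0.05. The epithelial genes KRT8, KRT18 and CDH1 did not pass the filter. All tested marker genes other than COL1A1 and EPCAM (GPC3, ALB, VIM, CDH2, FN1, PTPRC and CD68) lay between -0.25 and 0.31 in these libraries. The part of any marker in the SALL values was not tested.

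SALL4, the source of the peptides, was the SALL gene with the highest count in every library, and its level was highest in the PEN library. It stood at 1168 normalized counts with PEN-FFW (95% counting interval 1104 to 1234), 1291 in PEN-WT (1230 to 1354), 1359 in PEN-MUT (1288 to 1433) and 1665 in PEN (1593 to 1740). The PEN interval overlapped none of the others, while neighbours among the other 3 overlapped. These intervals, like those that follow, cover the counting of reads only. With 1 library per peptide there is no replicate spread and no test, and culture to culture variation is not in them.

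As deposited, a typical tested gene read lower in PEN-FFW, with medians of -0.27 against PEN, -0.30 against PEN-MUT and -0.30 against PEN-WT in log2 units. Each difference given here is that of log2(normalized count + 10), 1 library minus another, less the median over tested genes; the error after ± is the standard error from counting. Fold thresholds are on that scale too. Against PEN, SALL4 was at -0.24 ± 0.05 with PEN-FFW, -0.40 ± 0.05 with PEN-WT and -0.31 ± 0.05 with PEN-MUT. These 3 values share the PEN library. A lower difference was found for 1.7% of tested genes in PEN-WT against PEN and 3.4% in PEN-MUT against PEN, beside 12.5% in PEN-FFW against PEN, where the middle 80% of genes spread from -0.26 to 0.48. Against PEN-MUT the difference was 0.08 in PEN-FFW (interval -0.03 to 0.19) and -0.07 in PEN-WT (-0.18 to 0.03), both within counting error. PEN-FFW minus PEN-WT was 0.16 (0.05 to 0.26). On the values as deposited both PEN-FFW differences turned, to -0.22 against PEN-MUT and -0.14 against PEN-WT.

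**Figure D1:**
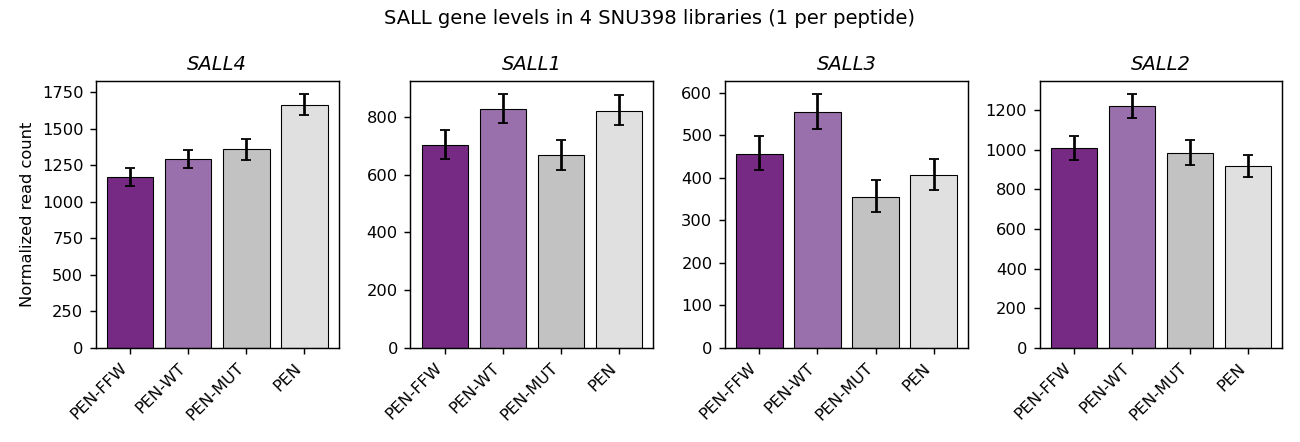
Normalized read count (y axis, from 0, a separate scale in each panel) of SALL4, SALL1, SALL3 and SALL2 in the PEN-FFW, PEN-WT, PEN-MUT and PEN libraries, with 95% Poisson counting intervals from 1 library each. SALL4 is highest in PEN (1665), whereas SALL3 and SALL2 are highest in PEN-WT (555 and 1223).

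SALL1 was lowest in PEN-MUT. It stood at 703 normalized counts with PEN-FFW (653 to 754), 829 in PEN-WT (780 to 880), 667 in PEN-MUT (617 to 720) and 822 in PEN (771 to 875). Relative to the median gene, PEN-FFW and PEN-WT were within counting error of PEN (0.05 ± 0.07 and -0.02 ± 0.06), and PEN-MUT was lower than PEN (-0.32 ± 0.07). SALL1 was accordingly higher than in PEN-MUT both in PEN-FFW (0.37 ± 0.08) and in PEN-WT (0.31 ± 0.07). These 2 values share the PEN-MUT library, in which the gene was low against PEN too. Between PEN-FFW and PEN-WT it differed by 0.07 (-0.07 to 0.20).

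SALL3 spanned the widest range of the family, 1.56-fold between its lowest and highest normalized counts, against 1.24-fold for SALL1. It had 456 in PEN-FFW (417 to 498), 555 in PEN-WT (515 to 597), 355 in PEN-MUT (319 to 394) and 406 in PEN (370 to 443). The PEN-WT interval lay above the other three, and those of PEN-FFW and PEN overlapped on this scale. Relative to the median gene it was higher than in PEN by 0.44 ± 0.09 in PEN-FFW and by 0.41 ± 0.08 in PEN-WT, and it was lower in PEN-MUT, at -0.21 ± 0.10. Against PEN-MUT it was higher by 0.65 ± 0.10 in PEN-FFW, where 93.9% of tested genes had a lower difference. In PEN-WT it was higher than in PEN-MUT by 0.63 ± 0.09, where 99.4% had a lower difference. Both values share the PEN-MUT library, in which SALL3 was low against PEN too. PEN-FFW minus PEN-WT was 0.02 (-0.14 to 0.19).

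SALL2 was lowest in PEN. It stood at 1008 normalized counts with PEN-FFW (949 to 1070), 1223 in PEN-WT (1163 to 1284), 985 in PEN-MUT (924 to 1048) and 918 in PEN (864 to 974). The PEN-WT interval lay apart from the rest, and the 3 others overlapped as neighbours. Relative to the median gene SALL2 was higher than in PEN by 0.40 ± 0.06 in PEN-FFW and by 0.38 ± 0.06 in PEN-WT, and PEN-MUT was within counting error of PEN (0.08 ± 0.06). Against PEN-MUT it was higher by 0.33 ± 0.06 in PEN-FFW and by 0.31 ± 0.06 in PEN-WT. PEN-FFW minus PEN-WT was 0.03 (-0.08 to 0.14).

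**Figure D2:**
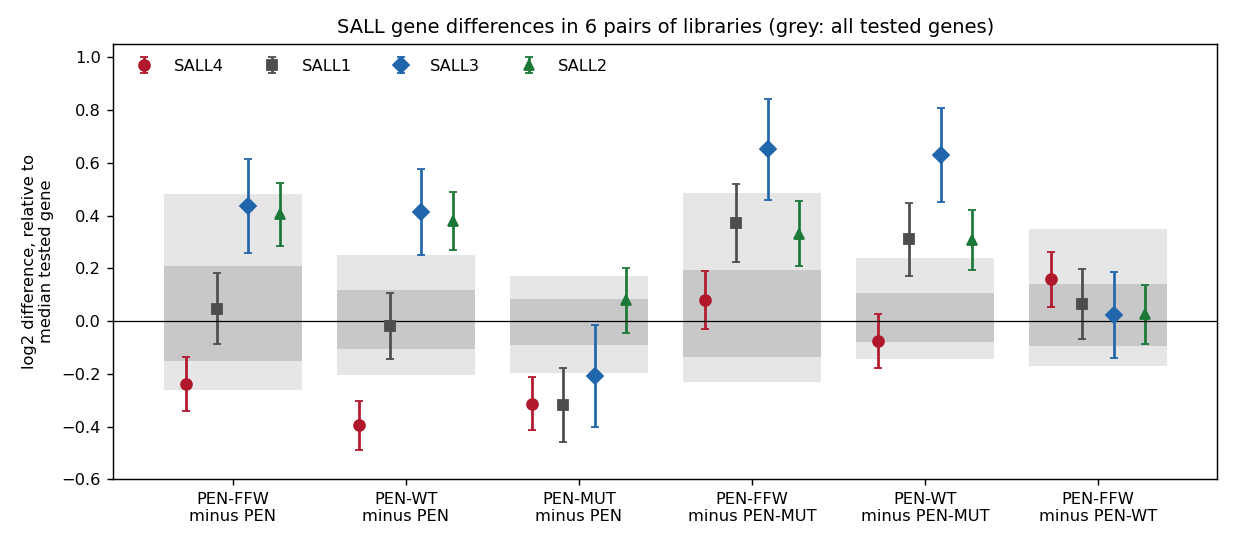
Log2 difference relative to the median tested gene (y axis) for each SALL gene in the 6 pairs of libraries, the library named first minus the other, with 95% counting intervals. Dark grey spans the middle 50% and light grey the middle 80% of 12578 tested genes; SALL3 at 0.65 and 0.63 against PEN-MUT lies above the light band in both pairs.

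Differences of this size were common in some pairs and rare in others. Of the 4 genes, SALL3 and SALL2 (2) exceeded PEN by 1.2-fold or more in PEN-FFW, as did 20.8% of tested genes, and 0 were lower by that much, beside 9.87% of tested genes. These calls depended on the scaling: SALL3 at 0.25 with GC-matched centring, and SALL3 at 0.17 and SALL2 at 0.13 as deposited, were under the threshold of 0.26 (log2 of 1.2). SALL4 passed it downwards at -0.51 as deposited, at -0.27 with a trimmed mean of M values and at -0.31 with no filter on low values. In PEN-WT against PEN the same 2 were higher, where 9.29% of genes were, and SALL4 was lower, where 5.92% were. In PEN-MUT against PEN 0 were higher (4.06% of genes) and 2, SALL4 and SALL1, were lower (5.36%).

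Against PEN-MUT, 3 of the 4 (SALL1, SALL3 and SALL2) exceeded it by 1.2-fold or more in PEN-FFW, beside 19.8% of tested genes, and 0 were lower, beside 6.27%. As deposited, SALL3 (0.35) was still past 1.2-fold there, and SALL1 (0.074) and SALL2 (0.033) were not. The same 3 were higher in PEN-WT, beside 8.36% of genes, and 0 were lower, beside 1.37%. At 1.5-fold SALL3 was the 1 member higher in PEN-FFW (7.24% of genes) and in PEN-WT (0.898%). With GC-matched centring it was under that threshold of 0.58 in both, at 0.51 with PEN-FFW and 0.56 with PEN-WT. With PEN-FFW it was also under it as deposited (0.35) and, by a narrow margin, with no filter on low values. Between PEN-FFW and PEN-WT 0 of the 4 were 1.2-fold higher (14.2% of genes) and 0 lower (2.7%), and their intervals reached from -0.14 to 0.26 at the widest, so differences of that size are not shown to be absent. As deposited, SALL3 and SALL2 were past 1.2-fold lower in this pair, both at -0.28, and SALL1 was at -0.24.

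Genes with a GC content like that of SALL3 were also higher in PEN-FFW and PEN-WT than in PEN. Tested genes were split by transcript GC content into 20 bins of equal size. The bin of SALL3 had medians of 0.18 in PEN-FFW against PEN and 0.10 in PEN-WT against PEN. Relative to that bin SALL3 stood at 0.25 and 0.32. With a GC content above 89.7% of tested genes, SALL3 was near the upper edge of its bin. Most genes of the bin thus had a lower GC content than SALL3. For SALL2 the bin medians were 0.05 and 0.04, which left it at 0.35 and 0.34. Those of SALL4 and SALL1 were between -0.02 and 0.01. The part of GC content in the SALL3 difference was not tested beyond this comparison.

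**Figure D3:**
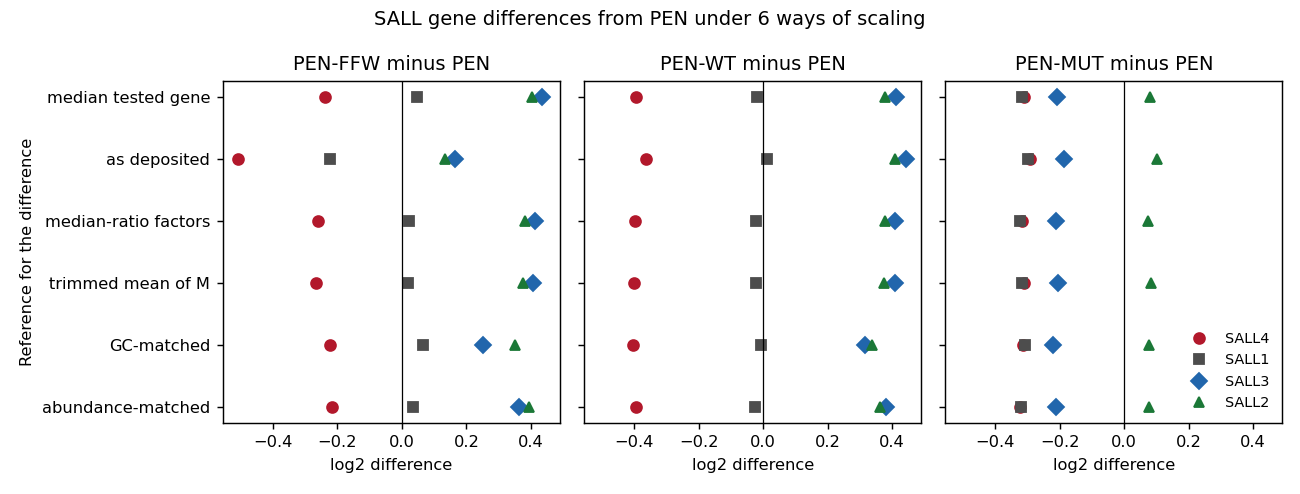
Log2 difference from PEN (x axis) of each SALL gene for PEN-FFW, then PEN-WT, then PEN-MUT under 6 ways of scaling (y axis), with the median tested gene at the top. In PEN-FFW the values as deposited put SALL4 at -0.51 and SALL3 at 0.17, and GC-matched scaling puts SALL3 at 0.25; in PEN-WT and PEN-MUT the points move little, apart from SALL3 at 0.32 in PEN-WT when GC-matched.

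Ratios between SALL genes inside 1 library do not depend on how libraries are scaled. They are not matched for GC content, and the GC bin medians of the genes differed. In PEN-FFW against PEN these were 0.18 for SALL3 and -0.02 for SALL4. The part of GC content in the ratios was not tested. For each SALL4 read there were 0.863 SALL2 reads in PEN-FFW (exact 95% interval 0.795 to 0.937), 0.947 in PEN-WT (0.883 to 1.015), 0.725 in PEN-MUT (0.667 to 0.787) and 0.551 in PEN (0.511 to 0.594). PEN had the lowest ratio, PEN-MUT lay between, and the intervals of PEN-FFW and PEN-WT overlapped each other and no other. SALL3 reads per SALL4 read were 0.391 in PEN-FFW (0.351 to 0.434), 0.430 in PEN-WT (0.393 to 0.470), 0.261 in PEN-MUT (0.232 to 0.294) and 0.244 in PEN (0.220 to 0.269). SALL1 reads per SALL4 read were 0.602 (0.549 to 0.659), 0.642 (0.594 to 0.694), 0.491 (0.447 to 0.539) and 0.494 (0.457 to 0.533) in PEN-FFW, PEN-WT, PEN-MUT and PEN. For SALL3 and SALL1 the PEN-FFW and PEN-WT ratios lay above those of PEN-MUT and PEN, with no overlap of intervals between these pairs of libraries.

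**Figure D4:**
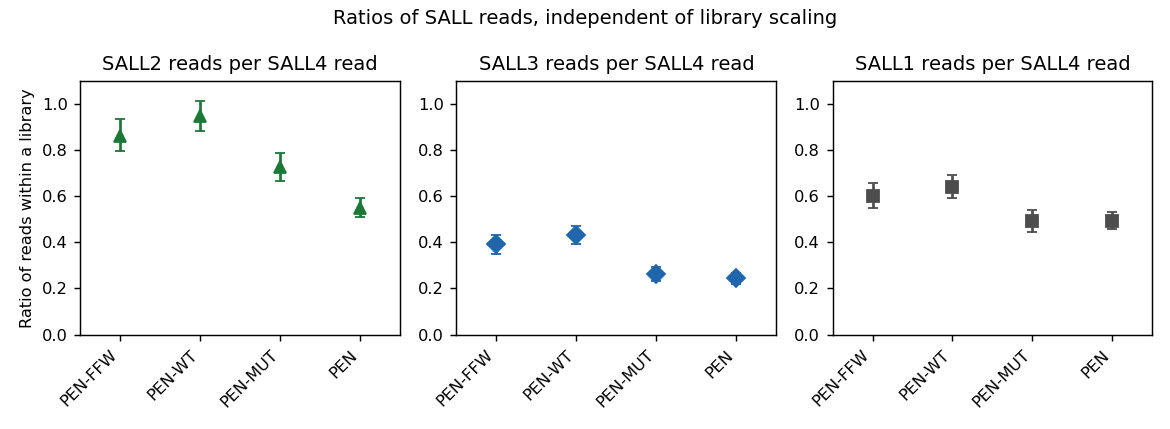
Reads of SALL2, SALL3 and SALL1 per SALL4 read within each library (y axis, from 0), with exact 95% binomial intervals from 1 library per peptide. SALL2 is at 0.947 in PEN-WT and 0.551 in PEN, while PEN-MUT and PEN differ little for SALL3 (0.261 and 0.244) and SALL1 (0.491 and 0.494).

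Ratios without SALL4 separated the libraries in other ways. SALL2 reads per SALL1 read were 1.435 in PEN-FFW (1.307 to 1.576), 1.475 in PEN-WT (1.364 to 1.595) and 1.477 in PEN-MUT (1.337 to 1.632), above 1.116 in PEN (1.023 to 1.218). SALL3 reads per SALL2 read were 0.452 in PEN-FFW (0.406 to 0.504), 0.454 in PEN-WT (0.415 to 0.496) and 0.442 in PEN (0.396 to 0.492), with a lower value of 0.360 in PEN-MUT (0.318 to 0.407). The intervals of PEN-FFW, PEN-WT and PEN overlapped, and that of PEN-MUT lay below the PEN-WT interval while its upper end reached those of PEN-FFW and PEN.

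Levels of different genes were compared per kilobase of annotated exon. SALL4 stood at 202 normalized counts per kilobase with PEN-FFW (191 to 214), 224 in PEN-WT (213 to 235), 235 in PEN-MUT (223 to 248) and 288 in PEN (276 to 301). SALL2 had 188 (177 to 199), 228 (217 to 239), 184 (172 to 195) and 171 (161 to 182) in the same libraries. SALL4 was thus above SALL2 beyond counting error in PEN-MUT and PEN, whereas in PEN-FFW and PEN-WT their intervals overlapped. SALL1 followed with 106 to 132 over the 4 libraries and SALL3 was lowest in each, with 51.8 to 81.0. Of family reads per kilobase, SALL4 held 35.6% in PEN-FFW (34.0% to 37.2%), 33.7% in PEN-WT (32.4% to 35.0%), 40.8% in PEN-MUT (39.2% to 42.5%) and 44.4% in PEN (43.0% to 45.9%).

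SALL3 and SALL2 were both higher in PEN-FFW and PEN-WT than in PEN, so the 250 bases before their RefSeq starts (GRCh38.p14) are shown, with CG pairs in capitals. The RefSeq table matched 2 of the 4 members, not SALL4 and SALL1. SALL3 is on the plus strand at chr18:78979568-78979817, and SALL2 on the minus strand at chr14:21537122-21537371. The coding starts above are in GRCh37, and which SALL2 coding start this window belongs to was not determined. It should not be read as the promoter of the canonical SALL2 transcript.
SALL3: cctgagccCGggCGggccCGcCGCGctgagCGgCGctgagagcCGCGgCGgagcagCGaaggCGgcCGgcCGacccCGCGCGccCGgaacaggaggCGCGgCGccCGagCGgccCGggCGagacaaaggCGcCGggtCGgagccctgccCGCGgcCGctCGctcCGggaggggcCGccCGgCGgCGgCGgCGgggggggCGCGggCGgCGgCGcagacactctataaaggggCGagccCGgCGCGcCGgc
SALL2: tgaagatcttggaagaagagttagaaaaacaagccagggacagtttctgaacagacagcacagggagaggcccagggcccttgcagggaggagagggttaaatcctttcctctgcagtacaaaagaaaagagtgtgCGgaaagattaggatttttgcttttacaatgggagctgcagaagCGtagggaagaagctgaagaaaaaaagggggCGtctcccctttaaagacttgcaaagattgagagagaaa

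These stretches have little in common. SALL3 holds 49 CG pairs and a GC content of 84.4%, more CG pairs than 99.8% of 35116 RefSeq promoter windows of this length. SALL2 holds 3 CG pairs and a GC content of 46.0%, with 22.9% of windows below it in CG pairs and a median of 11. The letters TATAAA, searched on both strands, are in the SALL3 window, as in 10.7% of all windows, and not in the SALL2 window.

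The nearest protein-coding gene on each side was set beside its SALL gene where it passed the filter; 5 did. ATP9A, a phospholipid flippase gene 13.9 kb from SALL4, was at 0.03 ± 0.03 with PEN-FFW, -0.03 ± 0.03 with PEN-WT and -0.12 ± 0.03 with PEN-MUT against PEN. ZFP64, 249.1 kb away on the other side, was at -0.06 ± 0.06, -0.01 ± 0.05 and -0.03 ± 0.06. The ATP9A relative ATP9B, 66.6 kb from SALL3, was at 0.21 ± 0.12, -0.11 ± 0.11 and -0.08 ± 0.12. METTL3, which codes for the catalytic subunit of the RNA m6A methyltransferase and lies 9.7 kb from SALL2, was at 0.04 ± 0.04, 0.04 ± 0.04 and -0.02 ± 0.04. CYLD, a deubiquitinase gene 334.0 kb from SALL1, was at -0.05, -0.02 and 0.04. At SALL4 and SALL2 the closest gene was thus within 0.12 of the median gene, while CYLD was within counting error of 0 in all 3 libraries against PEN and SALL1 was so in PEN-FFW and PEN-WT but not in PEN-MUT (-0.32). These neighbours were chosen after the SALL values were known.

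For each SALL gene the 3 most similar profiles were sought among 10107 genes with a mean of at least 200 normalized counts, by the root mean square distance of centred log2 values over the 4 libraries. For SALL4 these were ADAM17, the protease that sheds TNF (0.012), URB1, a ribosome biogenesis factor (0.017), and TRMT13, a tRNA methyltransferase (0.017). ADAM17 stood at 1848 normalized counts with PEN-FFW, 2073 in PEN-WT, 2175 in PEN-MUT and 2618 in PEN. SALL1 was closest to ZNF280B, VPS13C and MYO10 (0.022 to 0.027), and SALL2 to ADAM19, MATN2 and MAVS (0.010 to 0.017). SALL3 was closest to SYPL2, HES7, a Notch-regulated repressor of the segmentation clock, and PACS1 (0.019 to 0.044). Such profiles were common for SALL4 (6.8% of genes within 0.1), SALL2 (6.45%) and SALL1 (5.14%), and rarer for SALL3 (0.505%). Within the family the closest pair was SALL3 and SALL2 (0.135) and the farthest SALL4 and SALL3 (0.35).

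Relative to the median tested gene, other genes with the coding-start motif were more often higher than lower in PEN-FFW against PEN. Of these 14, 12 passed the filter, and 7 exceeded PEN by 1.2-fold or more in PEN-FFW and 0 were lower by as much, beside 20.8% and 9.87% of all tested genes. Their median was 0.28, against 0 for all tested genes by construction, or 0.25 when each gene was set against genes of its GC content. In PEN-WT against PEN 2 were higher and 0 lower (median -0.01), beside 9.29% and 5.92% of all tested genes. In PEN-MUT 0 were higher and 2 lower (median -0.01), beside 4.06% and 5.36%. With GC-matched centring 6 were higher and 0 lower in PEN-FFW against PEN, beside 17.8% and 9.76% of all tested genes. Leaving out the centring would add that pair's median of -0.27 to each value. Counts for these genes on that scale were not computed, so the excess of higher genes is shown only with centring. ZNF827, which recruits NuRD at telomeres, stood at 608 normalized counts with PEN-FFW, 513 in PEN-WT, 443 in PEN-MUT and 416 in PEN (0.81 ± 0.08 in PEN-FFW against PEN). ZFPM1, the GATA1 cofactor FOG1, had 218, 243, 195 and 175 in the same order (0.57 ± 0.13 in PEN-FFW and 0.42 ± 0.12 in PEN-WT against PEN). ZFPM2 was at 0.61 ± 0.21 with PEN-FFW and -0.13 ± 0.21 with PEN-WT, and ZNF513 at 0.45 ± 0.14 and -0.24 ± 0.14. BCL11A, a repressor of fetal globin, was at 0.35 with PEN-FFW, -0.02 with PEN-WT and -0.13 with PEN-MUT, and TSHZ1 at -0.15, -0.16 and 0.01. TSHZ2 and ZNF521 did not pass the filter. In CTNNBL1 (2 of 6 transcripts read) and ZFP64 (1 of 8), the SALL4 neighbour above, the canonical transcript does not encode the motif. Transcripts of the motif genes were not told apart.

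**Figure D5:**
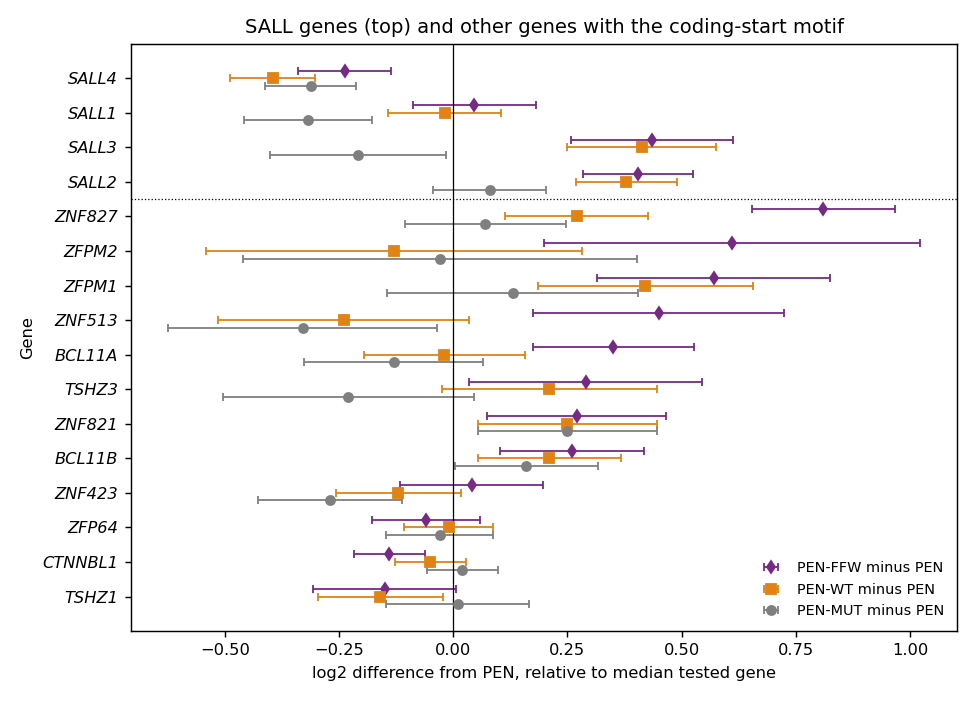
Log2 difference from PEN, with the median tested gene at 0 (x axis), for PEN-FFW, then PEN-WT, then PEN-MUT, with 95% counting intervals. The 4 SALL genes are above the dotted line. Below it are the 12 other tested genes with the same motif at the coding start of at least 1 annotated transcript. SALL4 lies left of 0 in all 3, at -0.24, -0.40 and -0.31, while ZNF827 lies at 0.81, 0.27 and 0.07.

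A wider list of 40 developmental C2H2 zinc finger genes, of which 30 passed the filter, was also examined; it shares some genes with the motif list. At 1.2-fold, 18 were higher and 3 lower in PEN-FFW against PEN (median 0.32), beside 20.8% and 9.87% of all tested genes. In PEN-WT 7 were higher and 3 lower (median 0.13), beside 9.29% and 5.92%, and in PEN-MUT 0 were higher and 6 lower (median -0.08), beside 4.06% and 5.36%. With GC-matched centring 18 were higher and 3 lower in PEN-FFW against PEN, beside 17.8% and 9.76%. Without centring each value in that pair would drop with the median of -0.27. Counts for this list on that scale were not computed, so its excess of higher genes is shown only with centring. ZFHX2 was the farthest, with 510 normalized counts in PEN-FFW, 266 in PEN-WT, 172 in PEN-MUT and 188 in PEN (1.66 ± 0.11 in PEN-FFW against PEN). ZFHX3 followed at 1.06 ± 0.05, PRDM16, a regulator of brown fat, at 1.04 ± 0.12 and ZFHX4 at 0.84 ± 0.03. Each SALL gene was thus within the wide range of this list in PEN-FFW against PEN (-0.5 to 1.66). SALL3 and SALL2 were above its median, and SALL4 and SALL1 were below it.

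The NuRD complex, which the motif binds, had 15 tested genes, of which 3 were higher at 1.2-fold and 0 lower in PEN-FFW against PEN (median -0.05), beside 20.8% and 9.87% of all tested genes, a share near that background. With no centring, which adds the pair's median of -0.27 to each value, 11 were past 1.2-fold in place of 3. That count takes higher and lower genes together. The share of all tested genes past 1.2-fold with no centring was not computed. In PEN-WT 1 was higher and 0 lower, beside 9.29% and 5.92%, and in PEN-MUT 0 and 0, beside 4.06% and 5.36%. GATAD2B, a scaffold subunit, stood at 533 normalized counts with PEN-FFW, 526 in PEN-WT, 349 in PEN-MUT and 376 in PEN (0.76 ± 0.09 in PEN-FFW and 0.44 ± 0.09 in PEN-WT against PEN). The remodeller genes CHD5 and CHD3 were at 0.48 ± 0.05 and 0.30 ± 0.03 in PEN-FFW. The deacetylase gene HDAC1 was at -0.24 ± 0.03 (PEN-FFW), -0.08 ± 0.02 (PEN-WT) and 0.08 ± 0.03 (PEN-MUT) against PEN. RBBP4, the direct partner of the motif, was at -0.10 ± 0.02, -0.01 ± 0.02 and 0.04 ± 0.02 in the same pairs.

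Genes that act with SALL4 elsewhere were mostly at low levels. Of 14 pluripotency genes 5 passed the filter, 1 was 1.2-fold lower in PEN-FFW against PEN, MYC (-0.73 ± 0.03), and 0 were higher, beside 9.87% and 20.8% of all tested genes. Relative to PEN, MYC was lower with PEN-WT (-0.68 ± 0.03) and PEN-MUT (-0.51 ± 0.03) too. DNMT3B was at 0.26 ± 0.04, KLF4 at -0.23 and SOX2 at 0.01, and NANOG stood at the lowest reported level in every library. Cereblon is the ubiquitin ligase subunit through which thalidomide leads to loss of SALL4 protein, and 7 of the 9 genes listed with it passed the filter. Of these 0 were higher and 1 was lower in PEN-FFW against PEN, RBX1 (-0.28 ± 0.05), beside 20.8% and 9.87% of all tested genes. With GC-matched centring 0 were lower. CUL4A was at -0.21 ± 0.03, DDB1 at -0.20 and CRBN at -0.10. In PEN-MUT against PEN 0 were higher and 1 was lower, beside 4.06% and 5.36% of all tested genes. This was IKZF3, a zinc finger protein that cereblon also targets, named after its value was seen; its normalized counts were 178 (PEN-FFW), 191 (PEN-WT), 163 (PEN-MUT) and 219 (PEN). Messenger RNA levels say nothing of SALL4 protein or of its binding.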

How the data were processed

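SNU398 libraries from 4 peptides (1 each) were analysed. The submitters' processing notes name the build hg19, the aligner STAR 2.4.0i and the read counter featureCounts 1.5.0-p1. For annotation, strand setting and normalization method the entry is: not given in the sources used here. The authors deposited log2 values. In each library the lowest was 2.32, the log2 of 5, and 100% of the others, with the log undone, were whole multiples of 1 step (tolerance 0.1 read), so reads were recovered by division. No test between conditions was possible with 1 library per group, and no p-value was computed. Genes whose normalized counts averaged 50 or more (12578, or 53.0%) were kept, and differences were taken with a pseudocount of 10, which understates low genes. Intervals are 95% Poisson or exact binomial. Sequenced fragments are not independent molecules, so they cover counting error only.

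Members and lists were chosen with earlier results of these data known. Besides the SALL genes, RBBP4 and HDAC1, at most 4 tested members per list were named, those farthest from PEN in PEN-FFW, with the motif genes and the 3 nearest profiles (small RNA, clone and noncoding names left out); neighbours, cell type markers and IKZF3 were named after their values were seen. Annotation was GENCODE 44 lifted to GRCh37, in which 20574 of 23710 genes matched by symbol, 1525 by a synonym and 1611 not at all; GC content was known for 97.2% of tested genes. It may differ from the annotation the authors counted with. The motif was read from coding sequences. The coding starts of the other SALL genes are not reported here. A planned comparison of whole proteins and zinc finger counts was not made. Difference, factor and interval code was tested on simulated data. Python 3.11.15, SciPy 1.17.1 and pandas 2.3.3 were used.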

Additional observations from a re-analysis of the deposited data

How the results depend on the processing

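Of the 24 differences (4 genes in 6 pairs of libraries), all 24 moved by less than their 95% counting interval with median-ratio size factors, with a trimmed mean of M values (own code), with genes of like abundance as centre, with a pseudocount of 1, with the deposited log2 values and no pseudocount, and with no filter on low values (genes above the lowest reported level in at least 1 library). With genes of like GC content as centre, SALL3 in PEN-FFW against PEN moved to 0.25 and the other 23 did not move beyond that interval. A value inside its interval could still cross a fold threshold: SALL3 against PEN-MUT was under 1.5-fold with GC-matched centring in PEN-FFW (0.51) and PEN-WT (0.56). With no centring the 12 differences without PEN-FFW held, and those of PEN-FFW dropped with its median gene. Against PEN they became -0.51 for SALL4, -0.22 for SALL1, 0.17 for SALL3 and 0.13 for SALL2. Against PEN-MUT they became -0.22 for SALL4, 0.074 for SALL1, 0.35 for SALL3 and 0.033 for SALL2. Against PEN-WT they became -0.24 for SALL1, -0.28 for SALL3 and -0.28 for SALL2, and SALL4 turned to -0.14. Counts of the 15 NuRD genes past 1.2-fold with no centring were 11 in PEN-FFW against PEN, 11 against PEN-MUT and 9 against PEN-WT. With centring they were 3, 6 and 2. Of the 6 against PEN-MUT, 4 were higher and 2 lower, beside 19.8% and 6.27% of all tested genes. Against PEN-WT 2 were higher and 0 lower, beside 14.2% and 2.7%. No share over all tested genes was computed without centring, so the larger counts are not a result about NuRD genes.

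Shares of family reads not divided by length moved for SALL1 to 21.1%, 21.3%, 19.8% and 21.6% in PEN-FFW, PEN-WT, PEN-MUT and PEN, for SALL3 to 13.7%, 14.2%, 10.5% and 10.6%, and for SALL2 to 30.2%, 31.4%, 29.3% and 24.1%. With the longest transcript as length SALL1 moved to 21.0%, 21.2%, 19.7% and 21.5%. The shares of SALL4 held under both. No paired analysis was possible because each peptide has 1 library, and none could be left out. Depth limits SALL3 most, with 355 reads in PEN-MUT.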
